A study of Mus musculus with 4 samples.

Results

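The genes described here act on histone H3 lysine 36 (H3K36) methylation. The set of 10 was chosen by name, 5 methyltransferases (Setd2, Nsd1, Nsd2, Nsd3 and Ash1l) and 5 demethylases (Kdm2a, Kdm2b, Kdm4a, Kdm4c and Kdm8). All 10 were found among the 18560 genes of the deposited table under these symbols, and all 10 passed the filter on low counts that left 12816 genes for testing. The samples were mouse (C57BL/6) spleen CD4+ T cells, taken as naive cells and activated through CD3 and CD28 into Th0 cells, which are activated helper cells without a polarising cytokine. Wild type libraries are numbered 1 and 6 (n = 2), and libraries with the genotype label Setd2-CD4 cre are numbered 9 and 12 (n = 2) and called knockout here. In these a Cre recombinase under Cd4 control acts on Setd2, so deletion starts during T cell development and is not limited to the activated cells. The sources give the stimulation as 2 or 3 days, and the titles carry the number 48. No label states whether the replicates were separate animals, so each p-value measures only the spread between these libraries, which may be technical.

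Methylation of H3K36 marks the bodies of transcribed genes. Setd2 travels with elongating RNA polymerase II and is the main enzyme that adds the trimethyl mark, whereas the Nsd enzymes and Ash1l add the mono- and dimethyl marks on which it builds. Demethylases of the Jumonji C (JmjC) family act against them: Kdm2a and Kdm2b, which bind CpG islands, remove the dimethyl mark, and Kdm4a and Kdm4c remove trimethyl marks from H3K36 and from H3K9. Kdm8, also called Jmjd5, was described as a demethylase of the dimethyl mark, and is also known as a hydroxylase of arginine. Reader proteins with a PWWP domain or a chromodomain bind the methylated lysine and link it to DNA methylation, mismatch repair and histone deacetylation.

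The libraries held between 17284613 and 20418766 counts, which are estimated (expected) counts from RSEM. T cell markers were present in every library, with Cd4 between 404 and 575 CPM (counts scaled to library size, with TMM factors). All 6 T cell markers were lower in both knockout libraries, against 24.3% of all tested genes. Among genes of 1 to 2 kb, where the markers' median length of 1754 bases lies, that share was 11.7%. The 6 markers summed to 2059 and 2371 CPM versus 1703 and 1618 CPM (wild type first, here and below). The 2 CD8 T cell markers summed to 260 and 330.4 CPM versus 432 and 323.1 CPM, and the 5 B cell markers to 262.4 and 179 CPM versus 192.1 and 335.5 CPM. Markers of myeloid cells (6), NK cells (4) and erythroid cells (4 globin genes) summed to at most 8.497, 9.054 and 19.78 CPM in any library. Of the 3 globin genes that could be tested, 2 were lower in both knockout libraries (Hbb-bs and Hba-a2), as were 2 of 3 tested myeloid markers (Itgam and Csf1r). Hbb-bs, a beta-globin gene, was at 3 and 10.4 CPM versus 1.16 and 1.19 CPM (log2 -2.5, SE 0.64), with an adjusted p of 0.0281 in DESeq2 and 0.349 in edgeR. Itgam was at 5.29 and 5.36 CPM versus 2.84 and 2.68 CPM (log2 -0.95, SE 0.4, edgeR adjusted p 0.416). The myeloid marker S100a8 was at 0 in 3 of the 4 libraries. The part of these cell types in the values below was not tested.

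Sequence before the start was on hand for 5 of the 10 genes in the RefSeq table of GRCm38.p6 (Setd2, Kdm2b, Kdm4a, Kdm4c and Kdm8, with no entry for Nsd1, Nsd2, Nsd3, Ash1l and Kdm2a). Setd2 and Kdm8 are shown because they are the deleted gene and the 1 member that was higher in both knockout libraries. Only bases outside annotated genes and exons are printed, 5′ to 3′ on the gene's strand, with matches to the GC box (GGGCGG, reverse CCGCCC) and the CCAAT box (CCAAT, reverse ATTGG) in capitals. The Setd2 stretch of 153 bases lies at chr9:110532347-110532499, plus strand, directly before the annotated gene. The Kdm8 stretch of 250 bases lies at chr7:125444370-125444619, plus strand.
Setd2: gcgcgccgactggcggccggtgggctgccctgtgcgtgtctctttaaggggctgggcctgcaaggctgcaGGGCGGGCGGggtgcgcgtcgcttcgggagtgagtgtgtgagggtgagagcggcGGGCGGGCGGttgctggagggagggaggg
Kdm8: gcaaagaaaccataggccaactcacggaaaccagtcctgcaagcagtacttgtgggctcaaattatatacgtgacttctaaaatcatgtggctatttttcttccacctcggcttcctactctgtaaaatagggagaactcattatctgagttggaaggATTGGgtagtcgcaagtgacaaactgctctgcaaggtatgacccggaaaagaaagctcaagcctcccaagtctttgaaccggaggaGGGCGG
The Setd2 stretch held 4 GC box matches, in 2 overlapping pairs, and no CCAAT box. The Kdm8 stretch held 1 of each. Of all 32851 windows of 250 bases before a start in the table, 32.7% held a GC box and 33.8% a CCAAT box on either strand. The full 250-base window of Setd2 held 7 GC box matches. Its last 97 bases lie within the annotated gene, whereas the Kdm8 window overlaps no annotated gene. The Setd2 window was rich in CpG, with 31 against 7 for Kdm8 and a median of 6 over all windows. These matches describe letters and not binding sites, and no binding was measured here.

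Levels of the 10 genes were compared per length, in FPKM (fragments per kilobase of effective length, scaled to library size). Among wild type cells the highest level was that of Nsd3, at 62 ± 9.68 FPKM (SD, n = 2), followed by Nsd2 at 53.8 ± 4.03 FPKM, and the ranges of these neighbours overlapped. Kdm2a (32 ± 2.28 FPKM), Kdm4a (31.9 ± 7.91 FPKM) and Kdm2b (31.2 ± 0.566 FPKM) could not be put in an order beyond their spread. Nsd1 (23.5 ± 2.21 FPKM) and Setd2 (20.1 ± 2.02 FPKM) came next, with ranges that lay close together without overlapping. Ash1l, at 8.28 FPKM in both libraries, and Kdm4c, at 8.11 ± 0.396 FPKM, overlapped, and Kdm8 was lowest at 3.36 ± 0.735 FPKM. The dimethyl-forming enzymes Nsd2 and Nsd3 thus stood above Setd2 in each of the 4 libraries. In knockout cells Nsd3 was again highest (39.4 ± 12.5 FPKM), and Ash1l was lowest by its mean (4.78 ± 1.85 FPKM), overlapping Kdm8 (5.03 ± 0.0354 FPKM) and Kdm4c (6.46 ± 0.976 FPKM).

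**Figure D1:**
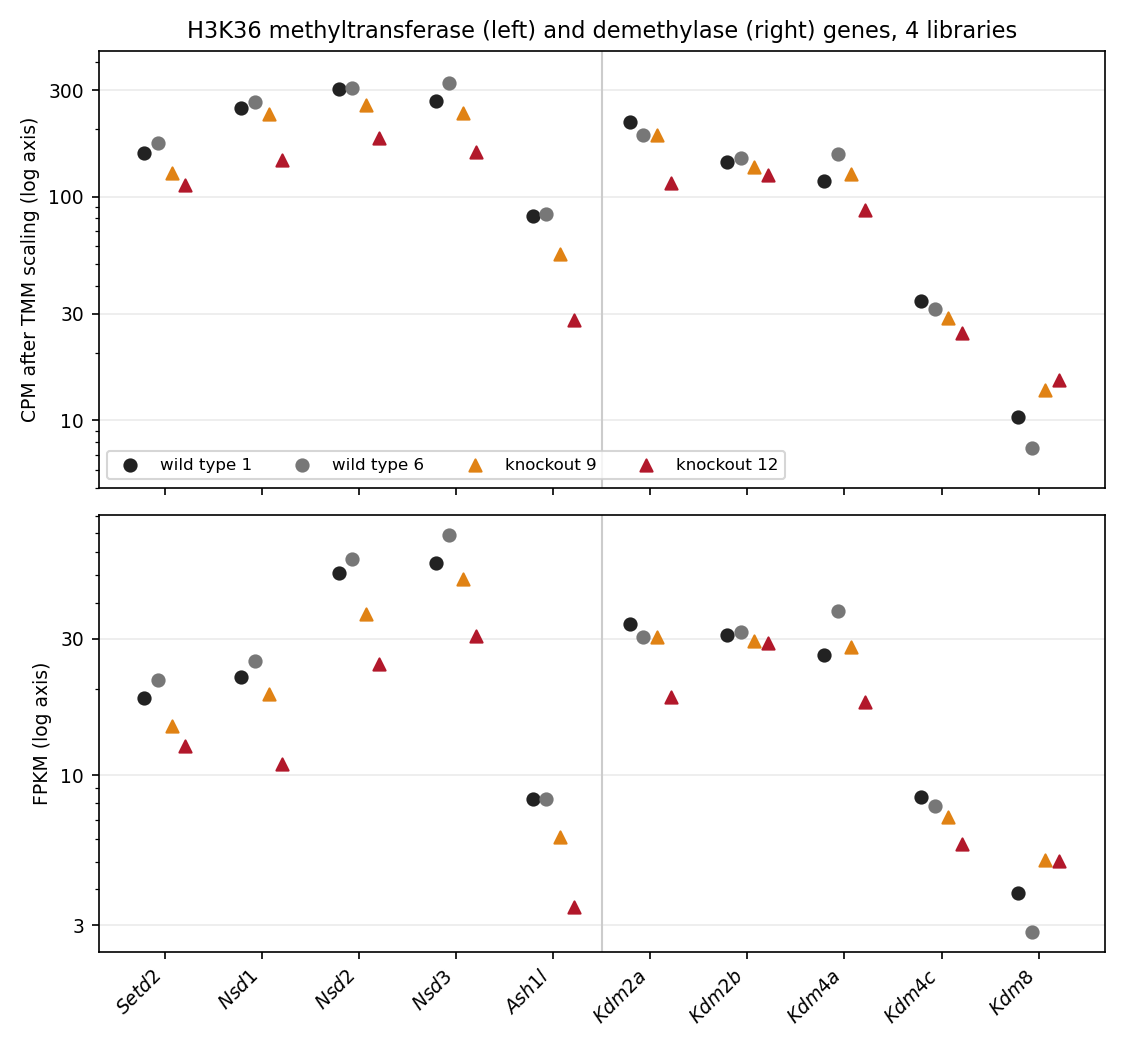
Levels of the 10 genes in each library, on log axes, as CPM after TMM scaling (top) and as FPKM (bottom); circles are wild type and triangles knockout libraries. In the CPM panel both knockout points lie below both wild type points for 8 genes and above them for Kdm8, and knockout replicate 12 is the lowest point for 9 genes.

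No member passed the test of knockout against wild type, in edgeR, DESeq2 or limma-voom (0 of 10 each at an adjusted p under 0.05). In edgeR 0.0078% of all genes were called (1 gene, not a member), and in DESeq2 1.53%. At an unadjusted edgeR p under 0.05 there was 1 member lower (Ash1l) and 1 higher (Kdm8), where the background was 5.73% of genes lower and 6.23% higher. Even so, 9 of the 10 genes had a negative log2 fold change, against 50.2% of all genes. Among the 500 tested genes nearest in length to each of these 9, the negative share ran from 64.6% (Kdm4c) to 83.4% (Nsd1). The median of the 10 members was -0.43, against 0 over all genes tested. That median was -0.17 with knockout replicate 12 left out and -0.7 with knockout replicate 9 left out. For 8 members each knockout library was lower than each wild type library, against 24.3% of all genes in CPM and 28.1% in FPKM, where the count of members was also 8. For 1 member they were higher, against 25.4%. The sections below give the members one by one and then beside genes of like length, since long genes as a whole were lower in the knockout libraries. In bulk samples, fewer cells of a type and less RNA per cell cannot be told apart.

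Setd2 (gene 235626, GRCm38.p6 chromosome 9, 110532500 to 110618633) was measured first, as the targeted gene. It had 3090 and 3450 counts in wild type replicates 1 and 6 and 2193 and 2186 counts in knockout replicates 9 and 12, which is 157.2 and 174.5 CPM versus 127.2 and 112.9 CPM. Both knockout libraries were lower than both wild type libraries, yet each kept most of the wild type level. The fold change came to 72.4% of wild type (log2 -0.47, SE 0.21, edgeR adjusted p 0.421). Counts over the whole gene do not show the deleted part alone, so they do not check the genotype labels.

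Ash1l (gene 192195, chromosome 3, 88950414 to 89079375), which dimethylates H3K36 and counteracts Polycomb silencing, differed most among the members. Wild type libraries gave 81.85 and 83.76 CPM, and knockout libraries 55.17 and 28.19 CPM. The wild type pair lay close together, both knockout libraries were below them, and replicate 12 was lower than replicate 9 by 0.97 on the log2 scale. The fold change was 50.3% of wild type (log2 -0.99, SE 0.32). Its unadjusted edgeR p was 0.0153, and its adjusted p was 0.394 in edgeR and 0.106 in DESeq2. Leaving out knockout replicate 12 gave a log2 value of -0.59, and leaving out knockout replicate 9 gave -1.56, so the direction was shared and the size was not.

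The 3 Nsd genes, which share a SET domain and PWWP domains, were all lower in both knockout libraries. Nsd3 (gene 234135, chromosome 8, 25601601 to 25719667) gave 267.9 and 323.0 CPM from wild type, with 237.0 and 158.5 CPM from knockout libraries (log2 -0.58, SE 0.26, edgeR adjusted p 0.417). Nsd2 (gene 107823, chromosome 5, 33820676 to 33897966), known for its overexpression in multiple myeloma, was at 304.9 and 307.5 CPM versus 256.4 and 182.7 CPM (log2 -0.48, SE 0.24, edgeR adjusted p 0.429). Nsd1 (gene 18193, chromosome 13, 55209782 to 55318325) was found at 249.1 and 265.2 CPM versus 233.9 and 146.5 CPM (log2 -0.44, SE 0.27, edgeR adjusted p 0.484). In each of the 3 the distance from wild type was mostly that of knockout replicate 12, at -0.89, -0.75 and -0.81 from the wild type mean in log2 CPM for Nsd3, Nsd2 and Nsd1. Knockout replicate 9 was at -0.31, -0.26 and -0.14. Without replicate 12 the log2 fold changes were -0.32, -0.26 and -0.14, and without replicate 9 they were -0.91, -0.76 and -0.82. The 5 methyltransferase genes together summed to 1061 and 1154 CPM without the deletion and to 909.7 and 628.7 CPM with it.

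Among the demethylases, Kdm2a (gene 225876, chromosome 19, 4316144 to 4398721) had 215.6 and 189.5 CPM as wild type levels, with 188.3 and 115.3 CPM from the knockout (log2 -0.42, SE 0.27, edgeR adjusted p 0.507). Knockout replicate 9 was thus level with wild type replicate 6, and its count as non-overlapping rests on a gap of about 1 CPM. In FPKM these libraries were also level, at 30.36 in knockout replicate 9 and 30.37 in wild type replicate 6. The log2 value of Kdm2a was -0.11 without knockout replicate 12 and -0.82 without replicate 9. Its paralog Kdm2b (gene 30841, chromosome 5, 122870664 to 122989270), which brings a Polycomb complex to CpG islands, differed least, at 142.4 and 149.0 CPM versus 135.3 and 124.7 CPM (log2 -0.16, SE 0.21). For Kdm2b 2 SE to each side runs from -0.57 to 0.25, so its error allows a decrease as large as that of Setd2.

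Kdm4a (gene 230674, chromosome 4, 118136957 to 118180090) was the 1 member whose groups overlapped, with wild type values of 117.1 and 155.6 CPM, and knockout values of 126.2 and 87.4 CPM (log2 -0.35, SE 0.26). Its value rested on single libraries of both groups, since it became -0.14 if wild type replicate 6 was dropped and -0.53 if replicate 1 was. Dropping knockout replicate 12 gave -0.11, and dropping replicate 9 gave -0.65. Kdm4c (gene 76804, chromosome 4, 74242497 to 74405864) stood at 34.34 and 31.51 CPM versus 28.54 and 24.63 CPM (log2 -0.31, SE 0.21). For Kdm4c the groups did not overlap, but the difference was under 2 SE. The 5 demethylase genes summed to 519.8 and 533.1 CPM, and in the knockout libraries to 492 and 367.2 CPM.

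Kdm8 (gene 77035, chromosome 7, 125444620 to 125463651) went the other way. It had 203 and 148 counts in wild type and 235 and 294 counts in knockout libraries, or 10.33 and 7.486 CPM versus 13.63 and 15.18 CPM. Both knockout libraries were above both wild type libraries, and the wild type pair was spread more widely than the knockout pair. The fold change was 1.62 (log2 0.69, SE 0.29, unadjusted edgeR p 0.0437, adjusted p 0.416). Kdm8 was the member with the fewest counts, and leaving out wild type replicate 6 gave a log2 value of 0.48, leaving out wild type replicate 1 a value of 0.96.

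In this data set the difference between groups followed gene length, and 9 of the members exceed 4 kb. Effective length, the length over which a fragment can start, was computed per gene from its count and FPKM. Among the 932 tested genes under 1 kb, the median distance from the wild type mean in log2 CPM was 0.19 in knockout replicate 9 and 0.58 in replicate 12. For the 411 genes of 8 to 12 kb it was -0.18 and -0.76. The slope was present in both knockout libraries and steeper in replicate 12. The 2 wild type libraries also differed by length. Among the 500 tested genes nearest in length to Nsd1, wild type replicate 6 minus replicate 1 had a median of 0.19 in log2 CPM. It was 0.14 for the genes nearest to Setd2 and 0 for those nearest to Kdm8. In knockout replicate 9 the medians from the wild type mean were -0.18, -0.14 and -0.03 for the same genes. Of the members, Nsd1 is longest at 11733 bases, followed by Ash1l (9466), Setd2 (8521), Nsd2 (6487), Kdm2a (6300), Nsd3 (4913), Kdm2b (4604), Kdm4a (4461) and Kdm4c (4070), with Kdm8 shortest at 2733 bases.

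**Figure D2:**
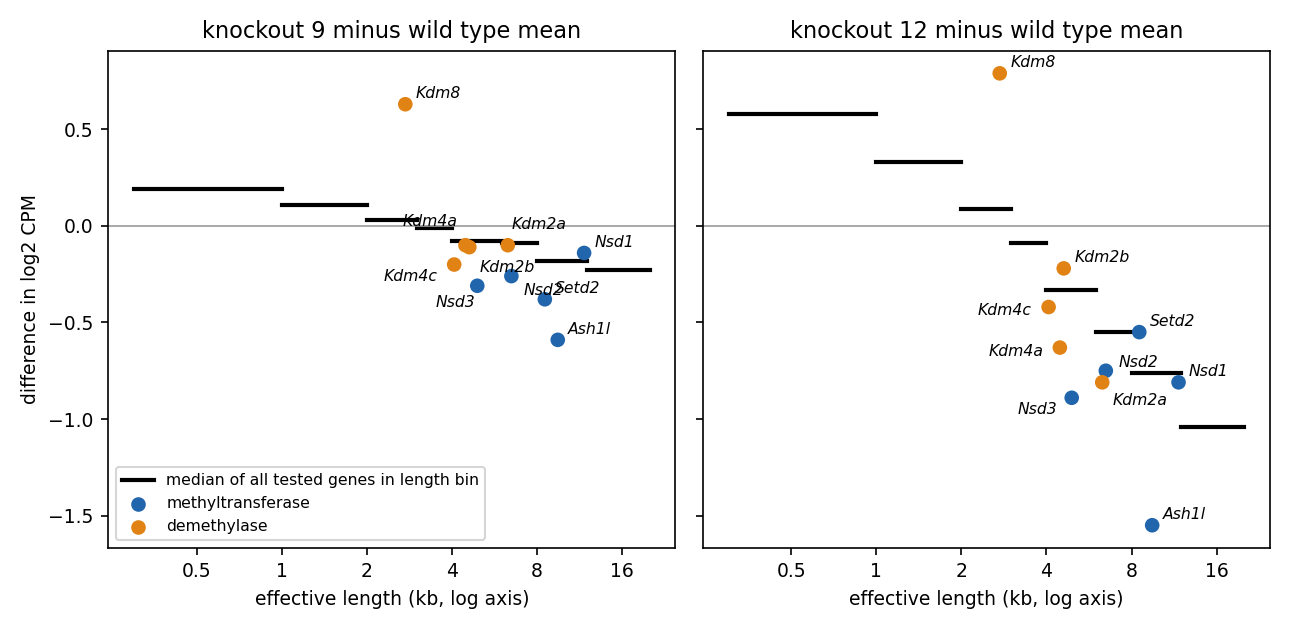
Difference in log2 CPM from the wild type mean against effective length (log axis) for knockout replicate 9 (left) and replicate 12 (right); black bars are medians of all tested genes per length bin and points are the 10 genes. The bars fall with length in both panels, from 0.58 to -1.04 in replicate 12, and Ash1l (-0.59 and -1.55) lies below them and Kdm8 (0.63 and 0.79) above them in both.

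Each member was then set beside the 500 tested genes nearest to it in effective length. Setd2 was close to its neighbours: their median log2 fold change was -0.41 against -0.47, and 43.8% of them were lower than Setd2. The 2 knockout libraries fell on different sides of the neighbours' median, at -0.38 against -0.14 in replicate 9 and at -0.55 against -0.67 in replicate 12. Its difference from them was -0.21 without replicate 12 and 0.15 without replicate 9. Nsd1 (difference 0.03, 53.8% of neighbours lower) and Kdm2b (0.02, 52.4% lower) were also level with theirs. Kdm2a, Kdm4a, Kdm4c and Nsd2 were lower than their neighbours' medians by between -0.13 and -0.19, with 30.6% to 35.8% of neighbours lower still. For Kdm2a this difference turned to 0.03 when wild type replicate 1 was dropped, and was -0.02 when knockout replicate 12 was. For Kdm4a it turned to 0.03 when wild type replicate 6 was dropped, and was -0.01 when knockout replicate 12 was. Kdm4c and Nsd2 stayed below their neighbours with any 1 library dropped, from -0.06 to -0.27 for Kdm4c and from -0.13 to -0.25 for Nsd2, with wild type replicate 1 and then replicate 6 as the library dropped at these ends.

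Nsd3 had a difference of -0.38, with 16.8% of its neighbours lower. With neighbours taken by the longest annotated transcript instead of the effective length, its difference was -0.18, which is within the range of Nsd2, Kdm2a, Kdm4a and Kdm4c, so its distance depends on which length is used. For Ash1l that choice gave -0.57. Ash1l had the largest distance downward, at -0.99 against a median of -0.43 for genes of its length, and 6.6% of these were lower than Ash1l. Its position was similar in the 2 knockout libraries taken singly, with 9.2% of neighbours lower in replicate 9 and 8.4% in replicate 12. With a library left out, the difference from like-length genes ran from -0.4 (knockout replicate 12 left out) to -0.79 (knockout replicate 9 left out) for Ash1l, and from -0.24 to -0.57 for Nsd3 in the same order. Kdm8 was higher than 91% of its neighbours, whose median was -0.04, a difference of 0.73. Dropping wild type replicate 6 brought it to 0.48, and dropping replicate 1 to 0.97. Over the 10 members the median difference from genes of like length was -0.14, compared with a log2 fold change of -0.43 before the neighbours were taken away.

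The share of genes of like length in which both knockout libraries were below both wild type libraries was itself high. It was 49.2% for the neighbours of Setd2, 49.8% for Nsd1 and 49% for Ash1l, and 24% for Kdm8, against 24.3% over all genes. Between these lay Nsd2 (43.6%), Kdm2a (42%), Kdm4a (39%), Nsd3 (37.2%), Kdm2b (36.6%) and Kdm4c (31.8%). Knockout replicate 12 was the lowest of the 4 libraries in 9 of the 10 members, against 34.4% of all genes, and in 46.8% to 76.8% of the neighbours of those 9.

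With a smooth trend on length removed from each library, the 8 non-overlapping members became 4 (Nsd2, Nsd3, Ash1l and Kdm4c), where 22.9% of all genes were lower in the same way. The log2 fold change was then -0.59 (SE 0.19) for Ash1l, -0.38 (SE 0.19) for Nsd3 and 0.67 (SE 0.26) for Kdm8. It was -0.03 (SE 0.19) for Setd2, and the signs of Nsd1 (0.08, SE 0.16) and Kdm2b (0.03, SE 0.16) turned positive. The edgeR adjusted p values of the 10 lay between 0.384 and 0.966 in that fit, so none passed. Setd2 on this scale stood at 7.15 and 7.14 log2 CPM in wild type and at 6.91 and 7.3 log2 CPM in knockout libraries, which lie on either side of the wild type pair.

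**Figure D3:**
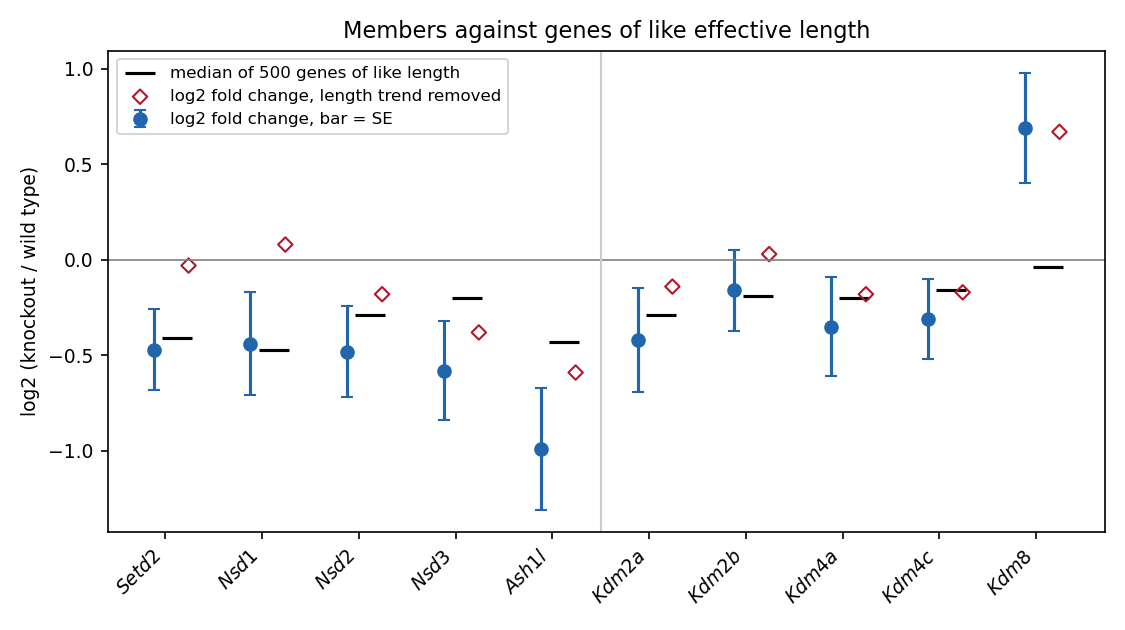
Log2 fold change of knockout over wild type for each member (blue points, bars are 1 SE), the median of the 500 tested genes of like effective length (black dashes), and the fold change with the length trend removed (open diamonds). Setd2, Nsd1 and Kdm2b sit at their dashes, Ash1l and Nsd3 below theirs by 0.56 and 0.38, and Kdm8 above by 0.73.

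Fold changes on the FPKM scale differed from those in CPM for some members. For Nsd2 the log2 ratio of mean FPKM was -0.82, against -0.48 in CPM, from 50.94 and 56.64 FPKM in wild type to 36.59 and 24.43 FPKM in knockout libraries. For Ash1l it was smaller, -0.79 against -0.99, and for Nsd1 larger, -0.64 against -0.44. FPKM divides by an effective length that RSEM weights by the isoforms it estimates in that library, so count over FPKM was taken as the average transcript length assigned to the gene there.

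The implied length of Nsd2 was 5985 and 5726 bases in wild type and 6989 and 7093 bases in knockout libraries, 20.2% longer in the mean. Nsd1 was 10.2% longer, from 11350 and 11163 bases to 12116 and 12704 bases. Ash1l changed by -18.5%, from 9883 and 10668 bases to 9049 and 7706 bases. Both knockout libraries were thus on the same side of both wild type libraries in these 3 methyltransferase genes, longer for Nsd1 and Nsd2 and shorter for Ash1l.

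Kdm2b (-9.43%) and Kdm2a (-7.54%) were also shorter in both knockout libraries, and Kdm4c (-3.67%) and Kdm4a (3%) differed by less. Setd2 stayed between 8426 and 8567 bases in all 4 libraries, and Nsd3 between 4852 and 4945 bases, which is under the 10105 bases of its longest annotated transcript. Setd2 lay above its longest annotated transcript (8350 bases), as did Kdm8, at 2661 to 2874 bases against 2389. For these 2 genes the implied length cannot be an average over the transcripts annotated here. In all, 7 of 10 members did not overlap between groups, 4 shorter and 3 longer, against 58.7% of 8233 genes with more than 1 annotated transcript (17.2% shorter and 41.5% longer). The count of members is therefore near the background. By size, the change of Ash1l was larger than that of 99.4% of these genes in either direction, and that of Nsd2 larger than 99.2%. In 498 genes with a single annotated transcript, 95% changed by no more than 3.31%. No test was made on these lengths, which RSEM estimates from short reads, and 2 libraries against 2 allow no p under 0.333 in an exact two-sided permutation test.

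**Figure D4:**
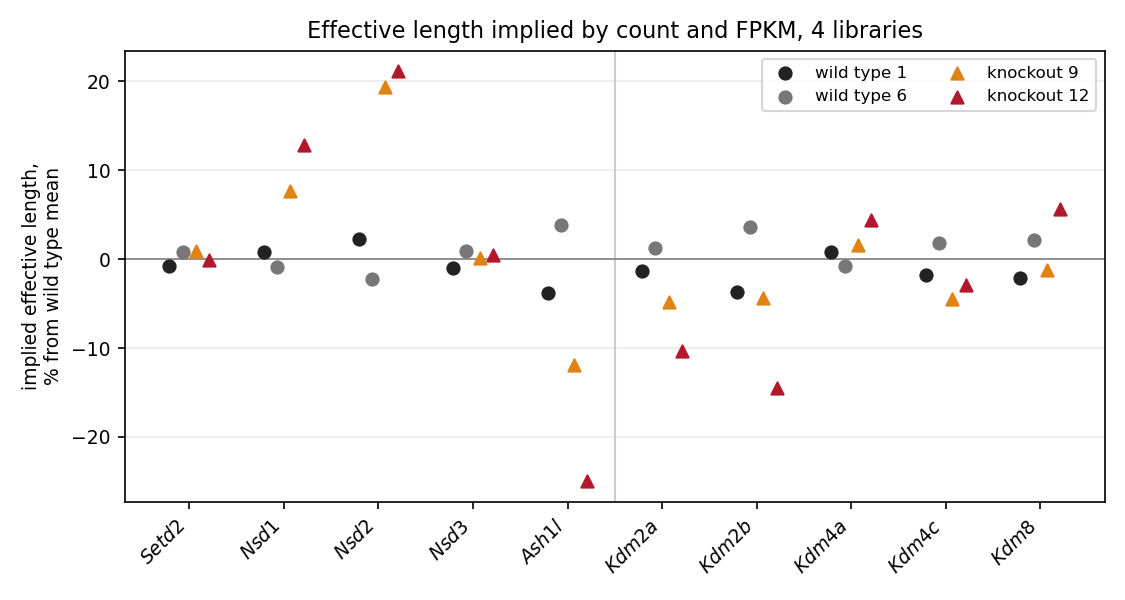
Effective length implied by count and FPKM in each library, as percent from the wild type mean of the same gene, for the 10 members. Nsd2 (20.2% longer) and Nsd1 (10.2%) rise above 0 in both knockout libraries, Ash1l (-18.5%) falls below, and Setd2 and Nsd3 stay near 0.

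Other genes of the pathway were read from lists chosen with earlier results of these data known, and no gene of these lists passed in edgeR or DESeq2. Of 7 further H3K36 methyltransferase and demethylase genes, 4 were higher in both knockout libraries and 1 lower, against 25.4% and 24.3% of all genes. One of the higher genes, Setmar, was low, at 2.44 and 1.82 CPM versus 5.4 and 3.25 CPM. The list's median log2 fold change was 0.55, and 0.36 without wild type replicate 6. The value of 0.55 is that of Kdm4d (SE 0.84), which overlapped near the floor, at 0.56 and 1.52 CPM versus 2.38 and 0.671 CPM. The methyltransferase gene Smyd2 stood at 30.1 and 15.7 CPM versus 34.9 and 41.8 CPM (log2 0.74, SE 0.32), and Smyd5 at 61.2 and 35.7 CPM versus 63.4 and 93.8 CPM (0.7, SE 0.32). Riox1, a JmjC oxygenase, stood at 20 and 18.8 CPM versus 22.7 and 33.4 CPM (0.53, SE 0.26). Wild type replicate 6 was the lowest library for all 3. These genes are short beside the members, with a median effective length of 2503 bases in the list, against 8521 for the 5 methyltransferase members. With the length trend removed the list's median log2 fold change was 0.52, again the value of Kdm4d. The share of genes of like length that were lower was 90.2% for Smyd2, 90.2% for Smyd5 and 84% for Riox1.

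Readers of H3K36 methylation showed no common direction, with 13 of 20 tested genes below 0, against 50.2% of all genes. Their median was -0.07 (0.01 without knockout replicate 12 and -0.18 without replicate 9). At an unadjusted edgeR p under 0.05, 2 were lower and 1 higher, where the background was 5.73% of genes lower and 6.23% higher. Brpf3, a PWWP protein of acetyltransferase complexes, stood at 54.8 and 70.9 CPM versus 38.4 and 28.4 CPM (log2 -0.91, SE 0.25, edgeR adjusted p 0.365). Zcwpw1 was at 30 and 30.4 CPM versus 19.8 and 20.8 CPM (-0.57, SE 0.21), and Morf4l2, a paralog of the chromodomain reader MRG15, at 127 and 81.4 CPM versus 143 and 193 CPM (0.69, SE 0.28). Of the 15 elongation genes that work beside H3K36 methylation, 8 had a positive and 7 a negative value, with a median of 0.14. Leaving out wild type replicate 6 turned that median to -0.05, leaving out wild type replicate 1 raised it to 0.4, and it was 0.05 without knockout replicate 12 and 0.21 without replicate 9. The elongation factor gene Supt4a (55.3 and 59 CPM versus 90 and 113 CPM, log2 0.83, SE 0.22) is short, at 685 bases, and Cdk12 (120 and 132 CPM versus 105 and 62.2 CPM, -0.6, SE 0.28) is long, at 7786 bases. With the length trend removed their log2 values were 0.43 and -0.25, and the list's median was 0.25. Cdk9, the kinase of P-TEFb, had a log2 value of 0.55 (SE 0.24).

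Further enzyme families were set beside the members. Of 20 other SET domain histone methyltransferase genes, 16 had a negative value and 10 were lower in both knockout libraries (median log2 -0.28, or -0.07 with the length trend removed). Negative values made up 50.2% of all genes. They made up 70.4% of the 500 genes nearest in length to Nsd3 (4913 bases), against a median length of 5110 bases in this list. The share lower in both was 24.3% over all genes and 38.8% over genes of 4 to 6 kb, where the median length of this list lies. The median was -0.12 without knockout replicate 12 and -0.5 without replicate 9. Kmt2c, an H3K4 methyltransferase of enhancers, stood at 113 and 154 CPM versus 86.1 and 36.3 CPM (-1.12, SE 0.4). Setd1b (-0.79, SE 0.27) and the H4K20 methyltransferase gene Kmt5b (-0.7, SE 0.25) were the other members of smallest p. All 11 other JmjC demethylase genes had a negative value, and 9 were lower in both knockout libraries (median -0.64, or -0.29 with the length trend removed). Of the 500 genes nearest in length to Kdm2a (6300 bases), 73.8% had a negative value, and this list's median length was 6327 bases. The list's median length falls among genes of 6 to 8 kb, of which 45.1% were lower in both. The median was -0.32 without knockout replicate 12 and -0.92 without replicate 9. Kdm6b, an H3K27 demethylase, stood at 114 and 89.1 CPM versus 68.3 and 44.2 CPM (-0.85, SE 0.27), and 7.4% of genes of its length were lower. Kdm5a (-0.71, SE 0.27) and Kdm5b (-0.64, SE 0.21), which remove H3K4 methylation, were also lower in both knockout libraries. The members' median of -0.43 lies between those of the 2 families, and no test of a difference between the families was made.

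The genes whose pattern over the 4 libraries was most like that of Setd2 were Foxo1, Man2a2 and Sptan1, by Euclidean distance between centred log2 CPM values over 4 libraries among 7219 genes with a mean of at least 20 CPM. Their distances were 0.016, 0.0273 and 0.0346 in log2 CPM. Foxo1, a transcription factor of T cell quiescence, had 172.9 and 194.6 CPM versus 140.1 and 125.2 CPM. Among the members Nsd2 (0.247) and Kdm4c (0.251) were nearest to Setd2, yet 8.08% and 8.46% of genes were closer. Ash1l (0.829) was the farthest of those compared, with 68.6% of genes closer. Kdm8 is under that level and was not compared. With 4 libraries, a close pattern describes these samples and no more.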

How the data were processed

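Gene-level values of 4 libraries were used, 2 wild type and 2 knockout. Total RNA had been isolated with TRIzol and read on an Illumina HiSeq, per the labels' protocols. Bowtie2, RSEM and the builds GRCm38.p6 and mm10 are named, per the submitters' processing notes, and their versions and any use of strand were not given. The deposited expected counts are estimates by RSEM that divide ambiguous reads between genes and isoforms, so reads shared by paralogs may be split between them. The second deposited value has no unit in the header. It was taken as FPKM made by the authors, since implied gene lengths divided by annotated lengths had a median of 0.995 in 549 single-transcript genes. Of the gene IDs, 99.3% matched RefSeq, the source of coordinates. The deposited group averages were not used.

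Counts were rounded, filtered with filterByExpr (minimum count 10), scaled by TMM and compared with edgeR 4.0.16 (R 4.3.3; robust quasi-likelihood F test), two-sided, with Benjamini-Hochberg adjustment over 12816 genes and a threshold of 0.05. The SE was taken from the F statistic. DESeq2 1.42.0 and limma 3.58.1 were alternatives, as were other scalings, filters, FPKM with a pseudocount of 1 or 0.1, a length trend removed (loess, span 0.4) and each library left out. The test was checked on simulated data. Implied lengths were compared in genes with a mean of at least 200 counts and 1 FPKM. Named genes were the members, the 3 genes of smallest p in each further list, the most abundant gene of each marker list, and the 3 genes most like Setd2. S100a8, Hba-a2 and Csf1r were named after their values were seen, and 1 marker gene is not reported here. The members and lists were chosen with earlier results of these data known.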

Additional observations from a re-analysis of the deposited data

How the results depend on the processing

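No paired analysis was possible because the groups have no replicate number in common. Over 14 alternative settings the 10 members gave 140 values, of which 138 kept their direction and none passed an adjusted p of 0.05 (range 0.106 to 1). The 2 that reversed were Nsd1 (0.08) and Kdm2b (0.03) with the length trend removed. The members' median log2 fold change was -0.16 with the length trend removed, and between -0.7 (without knockout replicate 9) and -0.17 (without knockout replicate 12) with a library left out. Between 7 and 9 members stayed negative in every setting. With the length trend removed, 4 rather than 8 had both knockout libraries below both wild type libraries. The median difference from genes of like length ran from -0.18 to -0.07 with a library left out. Over all genes edgeR called 1 higher and 0 lower, against 48 and 33 without a filter on low counts and 88 and 97 in DESeq2. With a library left out the counts ran from 0 to 113 higher and from 0 to 81 lower. Depth limits Kdm8 most, at 148 to 294 counts a library.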
